A study of Mus musculus with 69 samples.

Results

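The genes described here are those of DNA replication: 34 genes named by symbol, from the loading and firing of the replicative helicase to the polymerases, nucleotide supply and the rebuilding of chromatin behind the fork. They were followed in mouse dorsal skin treated with TPA, a plant-derived tumour promoter that acts through protein kinase C and makes the epidermis inflame and thicken. A gene was taken from probe sets that carry 1 gene symbol, using the probe set with the highest mean. That gave values for 30 of the 34 among 18820 genes measured, while Gins2, Rfc4, Tyms and Ccne2 lay on probe sets shared with other symbols and were not used here. The skin came from 3 kinds of mice, 8 weeks old: the inbred strain FVB/N (FVB), the wild-derived Spret/Ei (SPR) and their cross (F1), each with untreated skin as the 0 h control and TPA-treated skin at later times. The FVB course had 3 arrays each at 0, 2, 6, 12, 24, 48, 72, 168 and 1008 h. For F1 there were 4 arrays at 0 h, 2 each at 4, 6, 12, 24 and 72 h, 3 at 48 h, 6 at 1008 h and 1 each at 2 and 168 h, and for SPR 2 each at 0, 4, 12, 24, 48 and 1008 h and 1 each at 2 and 6 h. The protocol in the labels describes 1 dose in acetone on shaved skin and does not list the 12 h and 1008 h times, while the design text of the series speaks of replicate exposure, so the dosing behind the 12 h and 1008 h arrays is not known. Vehicle-treated arrays were not analysed here, so effects of acetone, shaving and, at 1008 h, the greater age of the mice cannot be told apart from those of TPA.

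Before a cell copies its DNA, Cdc6 and Cdt1 load the minichromosome maintenance (Mcm) ring onto origins, and Mcm10, Cdc45 and the GINS complex turn that ring into a moving helicase. Polymerase alpha and its primase start each strand, polymerases delta and epsilon extend it on the sliding clamp Pcna, and Fen1 and Lig1 join the pieces of the lagging strand. Many of these genes are known targets of the E2F factors, which the retinoblastoma proteins hold in check until cyclins push a cell into S phase. In resting dorsal skin the dividing cells are mainly basal keratinocytes and cells of the hair follicle, and a whole-skin array measures all of them together. Fewer cells of a type and less RNA per cell cannot be told apart in such samples.

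By their median, replication transcripts first went down and then up, though not every gene did both. In FVB skin 8 of the 30 genes fell at 6 h, where 5.88% of all genes were called lower, and between 6 h and 12 h 24 of the 30 rose, where 0.925% of all genes were called higher. The median change of the 30 in that step was 1.37 on the log2 scale. At 12 h 8 genes were called above untreated skin, where 5.46% of all genes were. They were led by the ribonucleotide reductase subunit Rrm2, the helicase subunit Gins1 and cyclin E1 (Ccne1). Dtl alone was in both the set that fell at 6 h and the set above untreated skin at 12 h. In F1 skin genes fell at 4 and 6 h and others rose by 12 h, and in SPR skin 25 of the 30 had their lowest mean at 4 h among the groups of 2 arrays up to 48 h. A gene is said to rise or fall, or is called, where limma gave a Benjamini-Hochberg adjusted p under 0.05 over all 18820 genes and the log2 change was 1 or more in size. Values after ± are standard errors from that fit, with as many arrays as listed above.

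**Figure D1:**
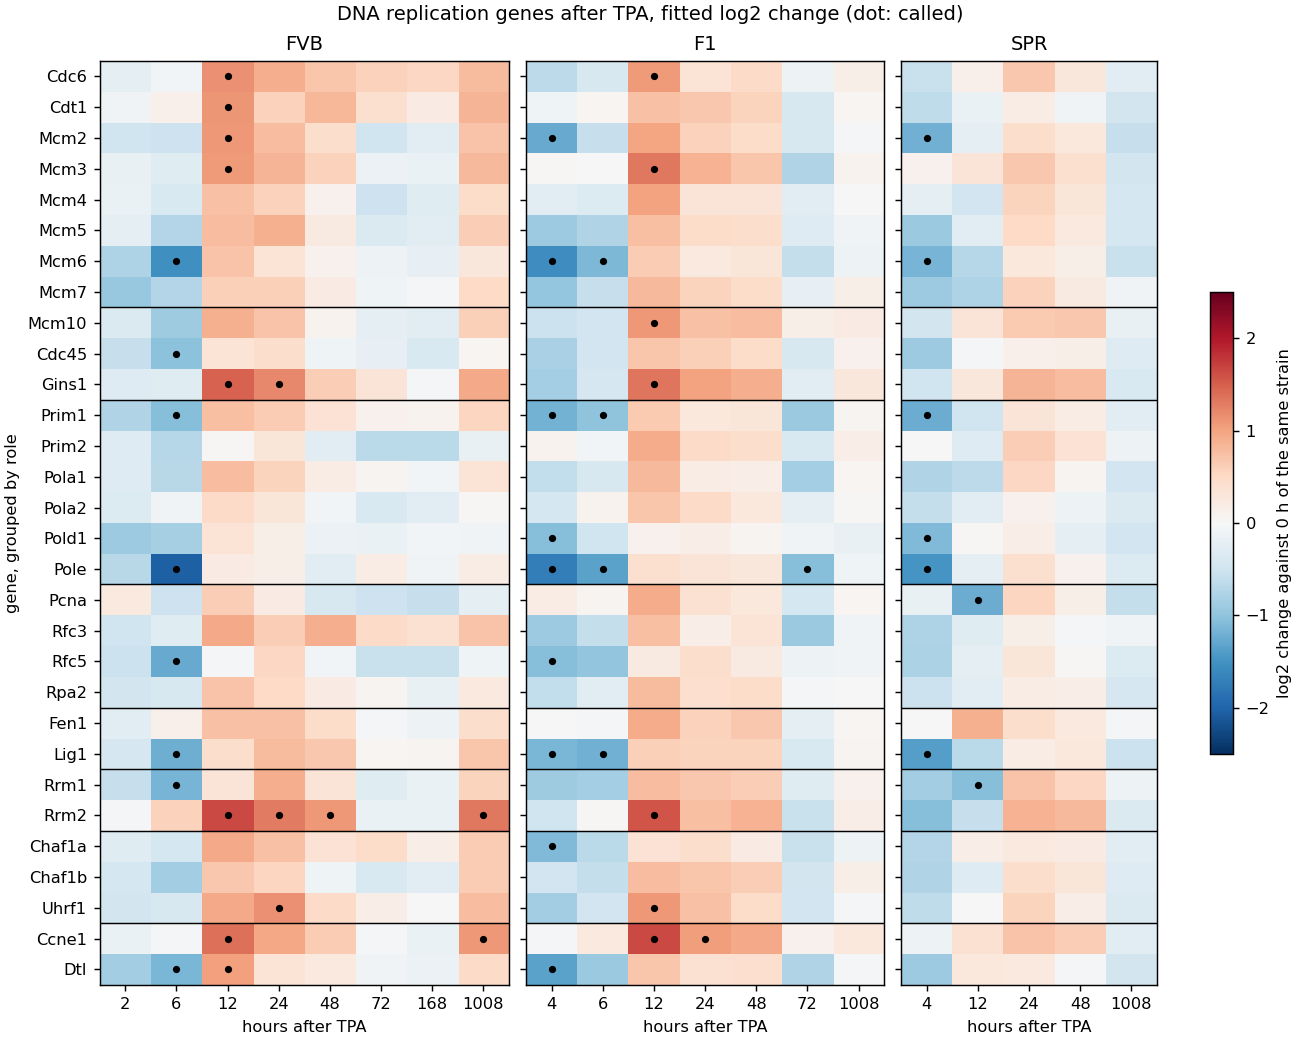
Fitted log2 change of the 30 DNA replication genes (vertical, grouped by role and separated by lines) against 0 h of the same strain, at each tested time in hours (horizontal) in FVB, F1 and SPR skin. Blue is lower and red is higher than 0 h on the scale shown, and a dot marks a called change; Pole at 6 h in FVB, at -2.04, is the lowest value and Rrm2 at 12 h in FVB, at 1.66, the highest.

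Promoter sequence from RefSeq (build GRCm38.p6) was at hand for 26 of the 30 genes, from 250 bases before to 50 after each start site. Mcm4, Gins1, Pole and Prim2 had no entry. The windows were searched on both strands for 4 spellings of the E2F site, TTTGGCGC, TTTCCCGC, TTTGCCGC and TTTCGCGC, because many of these genes are known E2F targets. At least 1 spelling was found in 12 of the 26 genes (46.2%), against 704 of 27025 genes in the whole table (2.6%), 11 of 39 other replication genes (28.2%) and 1 of 21 mitosis genes (4.76%). These 39 and 21 are the genes with a promoter entry among 46 and 25 listed, whether or not they were measured on the arrays. The mitosis genes more often held the cell cycle homology region, searched as TTTGAA or TTCGAA on both strands: 17 of 21 (81%), against 5 of the 26 replication genes (19.2%) and 21.7% of all genes. A match is a description of letters only, and the absence of one says nothing about the factor. The stretches below show the matches for 5 genes whose time courses are described further on or that carry overlapping matches. Capitals mark the matched spellings, and each sequence runs 5′ to 3′ on the gene's own strand and ends before the start site.
Mcm6, chr1:128359725-128359835, minus strand: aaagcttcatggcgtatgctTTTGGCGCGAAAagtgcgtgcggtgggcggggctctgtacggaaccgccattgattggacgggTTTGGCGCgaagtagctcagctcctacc
Mcm5, chr8:75109336-75109387, plus strand: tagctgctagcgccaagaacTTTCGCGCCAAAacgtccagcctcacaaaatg
Dtl, chr1:191575545-191575572, minus strand: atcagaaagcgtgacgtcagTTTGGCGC
Cdc6, chr11:98907993-98908040, plus strand: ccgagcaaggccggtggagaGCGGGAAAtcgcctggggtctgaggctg
Uhrf1, chr17:56304108-56304155, plus strand: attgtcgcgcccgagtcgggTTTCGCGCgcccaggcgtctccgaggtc
Mcm6 held 3 matches, of which the 2 farther from the start site overlap on opposite strands, as both matches of Mcm5 do. In Dtl the single match is followed at once by the start site, and in Cdc6 it lies on the opposite strand.

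The labels do not say whether each array stands for a separate mouse, so the two-sided p-values here measure only the spread between arrays, whose number limits the precision. Of the 69 arrays, 3 lacked a strain and entered no test, which left 66. Keratinocyte and fibroblast markers were bright in untreated FVB skin, with means of 11.89 for Krt5, 12.59 for Krt10 and 10.57 for Col1a1 on the log2 scale. The log2 interquartile range of an array lay between 3.40 and 3.89 except in 2 arrays, SPR replicate 1 at 12 h (1.38) and F1 replicate 2 at 72 h (2.39). Results that rest on these 2 arrays are given with and without them. Transcripts abundant in liver were high in FVB control replicates 2 and 3, at 2.21 and 2.66 in mean centred log2 value over 13 genes, and low in replicate 1, at -0.62. They were also high in FVB replicate 1 at 12 h (3.00) and at 24 h (2.08), FVB replicate 2 at 6 h (1.80) and F1 replicate 1 at 24 h (3.06). FVB replicate 3 at 6 h stood apart in leukocyte genes (1.43) and lymphoid genes (2.68). Lymphoid genes were also high in FVB control replicates 2 and 3, at 1.20 and 1.88, against -0.50 in replicate 1. They stood at 1.13 in FVB replicate 3 at 24 h. The part of these transcripts in the replication values was not tested. The count of genes rising from 6 h to 12 h was 25 without the liver-rich 12 h array and 24 without that 6 h array.

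The early fall in FVB skin was already visible at 2 h, when the median change of the 30 genes was -0.39 and 29 of them had a mean below 0 h. None was called at 2 h by limma, where 6.68% of all genes were called either way, and 9 had an unadjusted p under 0.05, all lower. Without the fold threshold 5 were lower. Leaving out FVB control replicate 3 gave 1 called gene and leaving out replicate 1 at 2 h gave 2. At 6 h 8 of the 30 fell, where 5.88% of all genes were called lower, with a median of -0.61 against 0.00 over all genes. All 3 arrays at 6 h lay below all 3 controls for 21 of the 30 genes, against 20.8% of all genes.

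The largest fall of a single gene at 6 h was in the polymerase and primase group, in Pole. By group median the genes that activate the helicase stood lower, at -0.89, than this group, at -0.77. Pole, the catalytic subunit of the leading-strand polymerase epsilon, read 7.29, 6.93 and 6.96 in the 3 untreated FVB arrays, 6.63, 5.95 and 6.49 at 2 h, and 5.18, 4.95 and 4.92 at 6 h. The 2 h arrays were all below the controls and the 6 h arrays lay below every 2 h array. Pole fell by 2.04 ± 0.26 at 6 h (adjusted p = 5.88e-08) and, between 2 h and 6 h, by 1.34 ± 0.26 (adjusted p = 0.000529), the 1 replication gene called in that step, where 2.17% of all genes were called lower. Prim1, the catalytic subunit of primase, read 6.94, 6.92 and 7.08 at 0 h and 6.30, 5.84 and 5.62 at 6 h, with no overlap. It fell by 1.06 ± 0.26 (adjusted p = 0.00175). The other 4 genes of this group were not called at 6 h, with changes from -0.09 for Pola2 to -0.83 for Pold1, a subunit of polymerase delta.

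In the licensing group only Mcm6, 1 subunit of the helicase ring, was called at 6 h. It read 8.07, 8.10 and 8.08 at 0 h, 7.64, 6.87 and 7.41 at 2 h, and 6.58, 6.73 and 6.32 at 6 h, so the controls were tight and every treated array lay below them. The fall was 1.54 ± 0.30 (adjusted p = 0.00013). The other ring subunits read between -0.30 (Mcm3) and -0.74 (Mcm7) at 6 h, and the loaders Cdc6 and Cdt1 read -0.06 and 0.13. Of the genes that activate the ring, Cdc45 fell by 1.03 ± 0.19 (adjusted p = 5.93e-05), from 6.67, 6.78 and 6.84 to 5.85, 5.71 and 5.62. Its 6 h arrays lay well under all controls.

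At the fork and behind it, Rfc5, a subunit of the loader that opens the Pcna clamp, read 8.41, 8.44 and 8.71 at 0 h and 7.24, 7.10 and 7.42 at 6 h. It fell by 1.26 ± 0.20 (adjusted p = 6.11e-06) with no overlap between groups. Lig1, the ligase that seals lagging-strand fragments, read 6.92, 6.74 and 6.89 at 0 h and 5.76, 5.63 and 5.50 at 6 h, a fall of 1.22 ± 0.22 (adjusted p = 3.83e-05). Rrm1, the large subunit of ribonucleotide reductase, fell by 1.17 ± 0.30 (adjusted p = 0.00268), from 9.05, 9.03 and 9.07 to 7.96, 7.60 and 8.09. Its small partner Rrm2 was not called. It read 6.55, 6.72 and 7.17 at 0 h and 7.71, 7.31 and 7.17 at 6 h, a difference of 0.58 ± 0.33.

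Dtl, which targets Cdt1 and other proteins for destruction during S phase, read 6.67, 6.70 and 6.67 at 0 h, 6.07, 5.33 and 6.05 at 2 h and 5.62, 5.55 and 5.47 at 6 h. It fell by 1.14 ± 0.25 at 6 h (adjusted p = 0.000475). Cyclin E1 (Ccne1), the cyclin that drives entry into S phase, did not pass the test, at 5.90, 6.23 and 6.42 at 0 h against 6.20, 6.11 and 6.18 at 6 h. No gene of the chromatin group, Chaf1a, Chaf1b and Uhrf1, was called at 6 h, and their changes lay between -0.41 and -0.87.

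**Figure D2:**
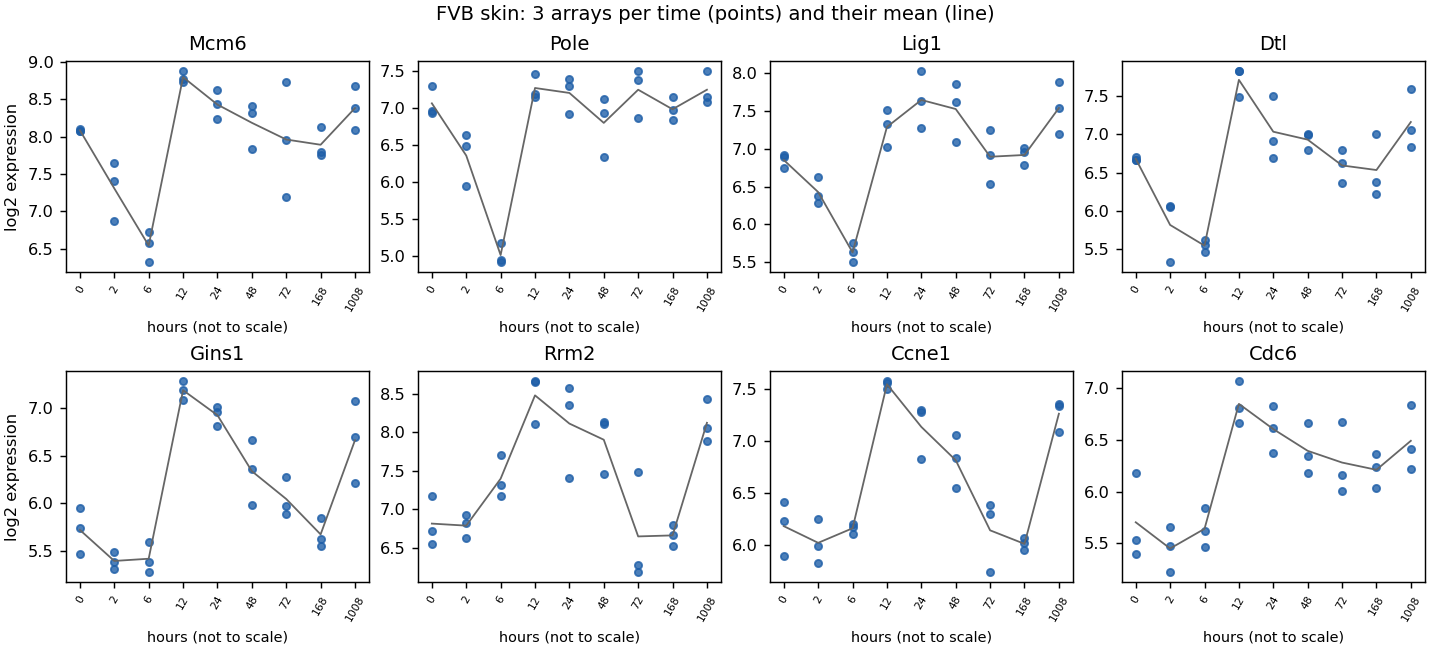
Log2 expression (vertical, a separate scale for each gene) of 8 DNA replication genes in FVB skin at each time in hours (horizontal, not to scale), with 3 arrays per time as points and their mean as a line. Mcm6, Pole, Lig1 and Dtl have their lowest mean at 6 h, at 6.55, 5.02, 5.63 and 5.54, while Gins1, Rrm2, Ccne1 and Cdc6 have their highest mean at 12 h, at 7.19, 8.48, 7.55 and 6.84.

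The step from 6 h to 12 h was the most uniform change of the FVB course. All 30 genes had a higher mean at 12 h, 24 of them rose, where 0.925% of all genes were called higher, and for 29 of the 30 every 12 h array lay above every 6 h array, against 12.0% of all genes. Leaving out any 1 of the 6 arrays gave between 23 and 25 called genes. The mean centred level of 8 basal keratinocyte markers overlapped between the groups, from -0.54 to 0.22 at 6 h and from -0.45 to 0.05 at 12 h. That of 5 suprabasal keratinocyte markers lay from -1.36 to -0.61 at 12 h, from -0.90 to -0.17 at 6 h and from -0.38 to -0.16 at 0 h, so the 12 h arrays were below all controls. That of 11 leukocyte genes lay from 0.12 to 0.60 at 12 h, above all controls (-0.60 to 0.07), and from -0.13 to 1.43 at 6 h. Their part in the replication values was not tested. The 6 genes that were not called were Cdt1 (0.97 ± 0.24, adjusted p = 0.0167, under the fold threshold), Pcna (1.13 ± 0.34, adjusted p = 0.0582), Rrm2 (1.08 ± 0.33, adjusted p = 0.0614), Prim2 (0.75 ± 0.24), Fen1 (0.60 ± 0.26) and Pola2 (0.56 ± 0.19).

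Pole and Mcm6 had the largest rises. Pole stood at 7.19, 7.46 and 7.15 at 12 h, a rise of 2.25 ± 0.26 over 6 h (adjusted p = 2.76e-07) that took it to 0.21 above its untreated mean of 7.06. Mcm6 stood at 8.77, 8.88 and 8.73, a rise of 2.25 ± 0.30 (adjusted p = 4.4e-06), and all 3 arrays were now above the controls. Dtl, at 7.48, 7.82 and 7.83, rose by 2.16 ± 0.25 (adjusted p = 2.76e-07). The helicase group moved together: Mcm10 rose by 1.78 ± 0.23, Gins1 by 1.77 ± 0.24 and Cdc45 by 1.37 ± 0.19. In the licensing group 7 of 8 genes rose, from 1.12 ± 0.27 for Mcm4 to the value of Mcm6, and Cdc6 rose by 1.20 ± 0.22. All 3 chromatin genes rose, Chaf1b by 1.54 ± 0.22, Chaf1a by 1.37 ± 0.20 and Uhrf1 by 1.36 ± 0.27. Chaf1a and Chaf1b encode subunits of the factor that places histones on new DNA, and Uhrf1 carries DNA methylation over to the new strand. Lig1 rose by 1.66 ± 0.22, Prim1 by 1.82 ± 0.26, Rrm1 by 1.49 ± 0.30 and the single-strand binding subunit Rpa2 by 1.13 ± 0.20.

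Against untreated skin the 12 h values split the genes differently. At 12 h 8 of the 30 rose over 0 h, where 5.46% of all genes were called higher, and none fell. The median was 0.75, and in 26 of the 30 every 12 h array lay above every control, against 22.2% of all genes. Leaving out replicate 2 at 12 h left 4 called genes. The comparisons of 6 h and of 12 h with 0 h share the control arrays. The step from 6 h to 12 h uses the 6 h arrays of the first and the 12 h arrays of the second. All these values are therefore given side by side and not as separate evidence.

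Rrm2, the small subunit of ribonucleotide reductase whose level is known to follow S phase, read 8.67, 8.66 and 8.11 at 12 h, against 6.55, 6.72 and 7.17 at 0 h. It rose by 1.66 ± 0.33 (adjusted p = 0.000203), with no overlap. Gins1, part of the GINS complex, read 5.74, 5.95 and 5.46 at 0 h, 5.38, 5.59 and 5.27 at 6 h and 7.29, 7.09 and 7.19 at 12 h. It rose by 1.47 ± 0.24 over 0 h (adjusted p = 1.52e-05), and its 12 h arrays lay above all 6 of those earlier arrays. Ccne1 read 7.56, 7.58 and 7.50 at 12 h, all above the controls, and rose by 1.37 ± 0.20 (adjusted p = 3.79e-06). Cdc6 read 5.53, 5.40 and 6.18 at 0 h and 7.07, 6.66 and 6.81 at 12 h, a rise of 1.14 ± 0.22 (adjusted p = 0.000131).

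Cdt1, Mcm2 and Mcm3 were the other licensing genes that rose at 12 h, by 1.10 ± 0.24, 1.08 ± 0.31 and 1.06 ± 0.24. Dtl also rose, by 1.03 ± 0.25 (adjusted p = 0.00183), close to the fold threshold. Leaving out replicate 2 or 3 at 12 h took it to 0.97 and below that threshold, and leaving out the 2 liver-rich controls gave adjusted p = 0.0545, the highest over its alternatives, with 0.000383 the lowest. At the other end, Rfc5 stood at -0.02, Prim2 at 0.03, Pole at 0.21 and Rrm1 at 0.32 over 0 h. Just under the fold threshold lay Rfc3 and Uhrf1, both at 0.95.

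The median of the 30 genes over 0 h in FVB skin was 0.75 at 12 h, 0.60 at 24 h and 0.24 at 48 h. By mean over the times to 168 h, 21 of the 30 genes were highest at 12 h and 9 at 24 h, and 16 were lowest at 6 h and 9 at 2 h. Between 12 h and 24 h no replication gene was called by limma, with a median of -0.19, 1 gene higher and 2 lower at an unadjusted p under 0.05, and 1.10% of all genes called either way. At 24 h 3 genes stood above 0 h, where 2.85% of all genes were called higher: Rrm2 by 1.30 ± 0.33, Gins1 by 1.21 ± 0.24 and Uhrf1 by 1.14 ± 0.27. Uhrf1 read 6.80, 6.68 and 6.95 at 0 h, 7.75, 7.95 and 7.58 at 12 h and 7.69, 8.00 and 8.16 at 24 h (adjusted p = 0.00336), with both later groups above the controls. Replicate 1 at 24 h was the lowest of its group for Rrm2, at 7.41 against 8.35 and 8.58, and 8 genes were called without it. Without control replicate 3 the count was 5.

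At 48 h Rrm2 was the 1 gene called, by 1.09 ± 0.33 (adjusted p = 0.023), where 3.10% of all genes were called higher. That call was lost without control replicate 1 or 2 and without replicate 1 or 2 at 48 h. At 72 h and 168 h no gene was called by limma against 0 h, where 1.88% and 0.383% of all genes were called either way. The medians were -0.11 and -0.16, and at an unadjusted p under 0.05 there were 2 higher and 2 lower at 72 h and 1 higher and 3 lower at 168 h. From 48 h to 72 h Rrm2 fell by 1.26 ± 0.33 (adjusted p = 0.0446), where 0.383% of all genes were called lower, but its 72 h arrays read 7.49, 6.18 and 6.27 and overlapped those of 48 h, at 8.14, 8.11 and 7.46. That call was lost without replicate 1 at 48 h and without replicate 2 or 3 at 72 h, and 2 genes were called without replicate 1 at 72 h.

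Genes of mitosis, a list of 21 measured genes chosen with earlier results of these data known, had their highest median later, at 24 h. Between 6 h and 12 h 5 of the 21 rose, where 0.925% of all genes were called higher, with a median of 0.70. Cyclin A2 (Ccna2) led at 1.49 ± 0.27, then the checkpoint kinase Bub1 at 1.22 ± 0.28. Between 12 h and 24 h 20 of the 21 rose, with a median of 1.53, where 0.701% of all genes were called higher. Ccnb2, a cyclin of mitotic entry, led at 2.05 ± 0.26, followed by the spindle protein Prc1 at 1.88 ± 0.25 and the cytokinesis factor Ect2 at 1.86 ± 0.23. Between 24 h and 48 h 10 of the 21 fell, where 0.271% of all genes were called lower, and the median of the list fell by 1.00. In that step no replication gene was called by limma, where 0.430% of all genes were called either way, and 8 were lower at an unadjusted p under 0.05. At 6 h against 0 h 9 of the 21 mitosis genes fell, where 5.88% of all genes were called lower, with a median of -0.83.

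**Figure D3:**
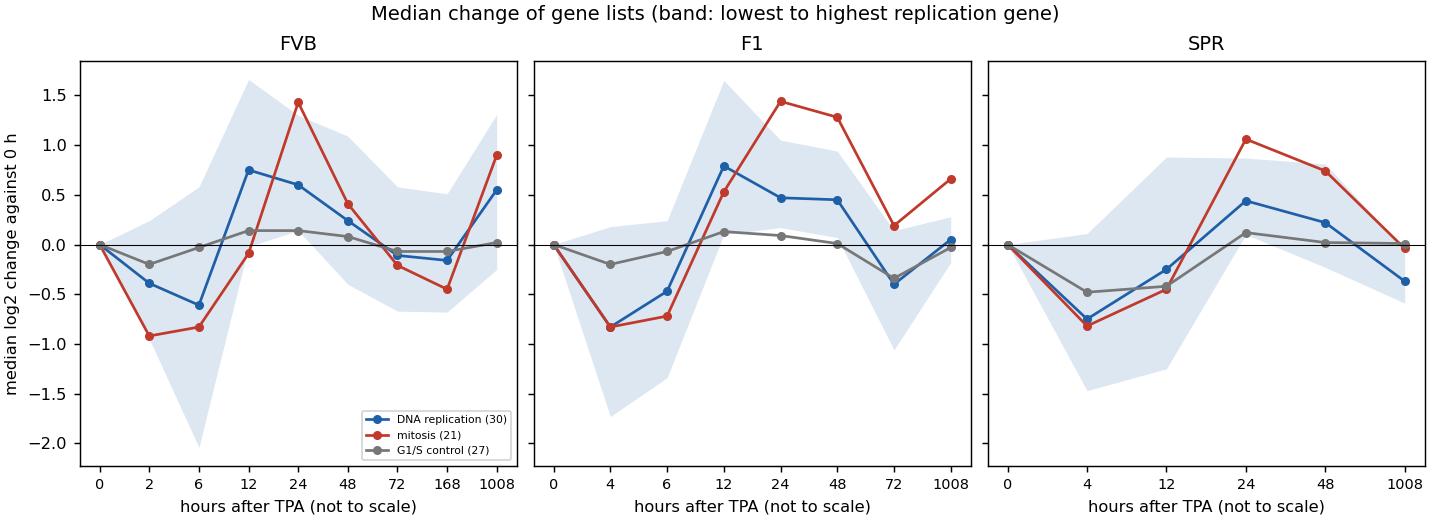
Median log2 change against 0 h of the same strain (vertical) for the lists of DNA replication, mitosis and G1/S control genes at each tested time in hours (horizontal, not to scale) in FVB, F1 and SPR skin; the band runs from the lowest to the highest replication gene. In FVB the replication median goes from -0.61 at 6 h to 0.75 at 12 h, and the mitosis median from -0.09 at 12 h to 1.43 at 24 h; the SPR values at 12 h include an array of narrow range.

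A further list of 44 measured replication genes, also chosen with earlier results known, covers origin recognition, other polymerase subunits and fork factors. Of these 44, 12 rose from 6 h to 12 h and none fell, with a median of 0.80, where 0.925% of all genes were called higher. The histone chaperone Asf1b led at 2.10 ± 0.34, then the nuclease Dna2 at 1.57 ± 0.24, the checkpoint adaptor Clspn at 1.46 ± 0.20 and the origin recognition subunit Orc1 at 1.44 ± 0.26. At 6 h against 0 h 3 of the 44 fell, a share near the 5.88% of all genes called lower. They were Asf1b, by 1.69 ± 0.34, the thymidine kinase Tk1, by 1.32 ± 0.23, and the topoisomerase Top2a, by 1.07 ± 0.30. Top1 rose by 1.03 ± 0.35, where 6.45% of all genes were called higher. At 12 h 6 of the 44 rose over 0 h, where 5.46% of all genes were called higher. Among them were Orc2 at 1.43 ± 0.26, Orc1 at 1.21 ± 0.26 and the uracil glycosylase Ung at 1.18 ± 0.20.

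The G1/S regulators, 27 measured genes, did not move one way. At 2 h 3 rose and 4 fell, where 3.60% and 3.08% of all genes did, with Myc at 1.87 ± 0.31 and E2f7, a repressor of the E2F family, at 1.28 ± 0.22, while the cyclin kinase inhibitor Cdkn1b fell by 1.41 ± 0.27 and the pocket protein Rbl1 fell by 1.29 ± 0.24. Between 6 h and 12 h 2 of the 27 rose, where 0.925% of all genes were called higher: E2f1 by 1.94 ± 0.23 (adjusted p = 9.75e-07) and Rbl1 by 1.23 ± 0.24. E2f1 is an activator of replication genes, and Rbl1 restrains E2F. At 12 h against 0 h 2 rose and 2 fell, shares near the 5.46% and 4.94% of all genes that did, with Myc at 1.28 ± 0.31 and Cdkn1b lower by a log2 change of -1.30 ± 0.27.

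At 1008 h the median of the 30 genes in FVB skin was 0.55 and 2 of the 30 were called, a share near the 4.22% of all genes called higher. Rrm2 read 8.05, 8.43 and 7.89, above every control, and rose by 1.31 ± 0.33 (adjusted p = 0.00361). Ccne1 read 7.34, 7.36 and 7.09 and rose by 1.09 ± 0.20 (adjusted p = 0.000141), but stood at 0.95 without control replicate 1, which left 1 called gene. Against 168 h 3 genes rose, where 3.28% of all genes were called higher: Rrm2 by 1.46 ± 0.33, Ccne1 by 1.25 ± 0.20 and Mcm2 by 1.00 ± 0.31. The count was 6 without replicate 3 at 168 h and 7 without replicate 3 at 1008 h.

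Markers of the growing hair follicle were far higher in the same 3 arrays. Of 9 measured hair matrix genes 8 rose at 1008 h, where 4.22% of all genes were called higher. Among them were the inner root sheath keratin Krt71, at 13.63 against 6.28 in untreated skin, Tchh at 13.61 against 6.80, and the matrix regulator Hoxc13 at 7.98 against 5.80. The mean centred level of the list lay between 2.39 and 2.72 in these arrays and between -0.37 and -0.17 in the controls. In SPR skin the list was also high at 1008 h, at 1.32 and 1.24 against -0.28 and -0.09 at 0 h, and at 48 h, at 1.34 and 1.09. The mean centred level of the 30 replication genes in those SPR arrays was -0.03 and -0.42 at 1008 h and 0.12 and 0.53 at 48 h, against -0.21 and 0.39 in the controls. The 1008 h array at -0.42 is of batch 3, and the other SPR arrays named here are of batch 2. The part of follicle cells in the replication values was not tested. Of the 21 mitosis genes 6 rose at 1008 h in FVB skin, against the same 4.22% of all genes, with a median of 0.90.

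In F1 skin the fall came at the first time tested. At 4 h 9 of the 30 genes fell, where 5.03% of all genes were called lower, with a median of -0.83, and 24 had both 4 h arrays below all 4 controls, against 25.3% of all genes. Pole read 6.85, 7.31, 7.43 and 7.21 at 0 h and 5.16 and 5.79 at 4 h, and fell by 1.73 ± 0.27 (adjusted p = 5.75e-06). Mcm6 read 8.00, 8.36, 8.44 and 8.26 at 0 h and 6.45 and 6.98 at 4 h, and fell by 1.55 ± 0.32 (adjusted p = 0.000329). Dtl, at 5.47 and 5.60 with its lowest control at 6.68, fell by 1.34 ± 0.26. No 4 h array reached a control for these genes. Within batches 2 and 3, as the labels number them, the median differences of the 30 genes were -0.72 and -0.81. The other falls were those of Mcm2, Prim1, Lig1, Chaf1a, Pold1 and Rfc5, between 1.07 and 1.26 in size. At 6 h 4 of the 30 fell, where 4.98% of all genes were called lower: Pole, Lig1, Mcm6 and Prim1, by 1.34, 1.21, 1.12 and 1.01. Without replicate 2 at 6 h the count was 1, with Lig1 still called.

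At 12 h 7 of the 30 rose in F1 skin, where 2.48% of all genes were called higher, and in 28 both arrays lay above all controls, against 21.2% of all genes. Ccne1 read 6.05, 6.03, 6.14 and 6.48 at 0 h and 7.88 and 7.76 at 12 h, a rise of 1.65 ± 0.22 (adjusted p = 1.14e-06). Rrm2 went from 7.41, 7.32, 7.47 and 7.26 to 8.92 and 8.96, a rise of 1.57 ± 0.35 (adjusted p = 0.00206). Neither gene's groups overlapped. Gins1 rose by 1.33 ± 0.26, Mcm3 by 1.32 ± 0.26, Mcm10 by 1.09 ± 0.25, Uhrf1 by 1.08 ± 0.28 and Cdc6 by 1.06 ± 0.23. Without replicate 2 at 12 h the count was 3. The F1 arrays at this time came from the same batches: within batch 2 the median difference was 0.73 and within batch 3 it was 0.83, each with 1 array against 2.

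The F1 step from 6 h to 12 h was tested after the FVB result had been seen. In that step 23 of the 30 genes rose, where 0.887% of all genes were called higher, with a median of 1.38, and both 12 h arrays lay above both 6 h arrays for all 30, against 24.4% of all genes. The FVB and F1 means compared in this step come from different arrays. Each gene's spread was pooled over all groups, however, so both tests use the same estimate of it and are not independent. These tests called 22 genes in common, 91.7% of those called in FVB and 95.7% of those called in F1. Pola1 and Pold1 were called in FVB and not in F1, Rrm2 in F1 and not in FVB. With 2 arrays a group the count rested on single arrays, being 1 without replicate 2 at 6 h, 8 without replicate 1 at 12 h and 13 without replicate 2 at 12 h. Within batch 2, with 1 array against 1, all 30 differences were positive with a median of 1.16, and within batch 3 all 30 were positive with a median of 1.56.

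**Figure D4:**
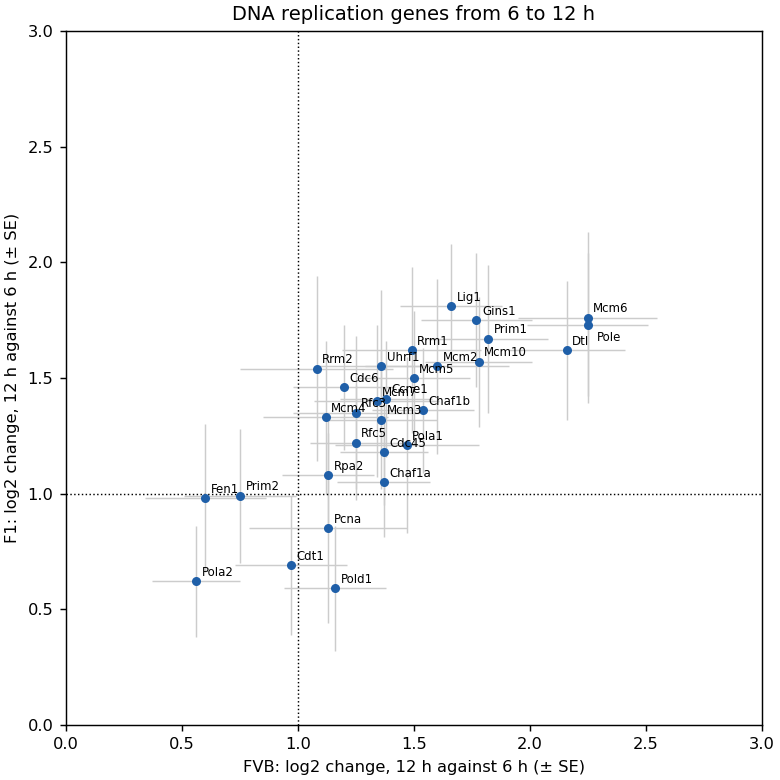
Log2 change from 6 h to 12 h of the 30 DNA replication genes in FVB (horizontal) and F1 skin (vertical), with standard errors as grey bars and dotted lines at a log2 change of 1. All 30 points lie above 0 on both axes, with Pola2 lowest in FVB (0.56), Pold1 lowest in F1 (0.59), and Pole and Mcm6 at 2.25 in FVB and at 1.73 and 1.76 in F1.

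Later F1 times gave few calls. At 24 h all 30 genes had a mean above 0 h with a median of 0.47, and Ccne1 was called, by 1.05 ± 0.22 (adjusted p = 0.00292), where 1.14% of all genes were called higher. It was lost without replicate 2 at 24 h, and 2 genes were called without control replicate 3. At 48 h no gene was called by limma, where 1.39% of all genes were called either way, with a median of 0.45 and 13 genes higher at an unadjusted p under 0.05. Leaving out control replicate 3, control replicate 4 or replicate 1 at 48 h gave 1, 1 and 2 called genes. At 72 h Pole fell by 1.06 ± 0.28, where 1.79% of all genes were called lower, but its 2 arrays read 6.65 and 5.53, the lower of them the array of narrow range. Without that array the difference was -0.50 and not called. Without control replicate 2, 3 or 4 the count was also 0, without control replicate 1 it was 2, and without replicate 1 at 72 h it was 7. At 1008 h, with 6 arrays, the median was 0.05, no gene was called by limma, where 0.802% of all genes were called either way, and 0 had an unadjusted p under 0.05. Rrm2 there ran from 7.09 through a median of 7.51 to 7.92, and Ccne1 from 6.07 through 6.44 to 6.64, both overlapping their controls.

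In SPR skin 6 of the 30 genes fell at 4 h, where 2.70% of all genes were called lower, with a median of -0.75, and 23 had both 4 h arrays below both controls, against 28.8% of all genes. Pole read 6.42 and 7.44 at 0 h and 5.66 and 5.25 at 4 h, a fall of 1.47 ± 0.31 (adjusted p = 0.00141), though its controls were 1.02 apart. Lig1 read 7.02 and 7.66 at 0 h and 5.91 and 6.03 at 4 h, a fall of 1.37 ± 0.27 (adjusted p = 0.0005). Prim1, Mcm2, Mcm6 and Pold1 fell by 1.24, 1.20, 1.17 and 1.10. The count was 0 without control replicate 2, 3 without replicate 1 at 4 h, 2 without replicate 2 at 4 h and 0 with SPR fitted alone.

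At 12 h the 2 SPR arrays went opposite ways. Replicate 1, the array of narrow range, had 20 of the 30 genes below both controls, against 46.8% of all genes, and a median difference of -0.79. Replicate 2 had 16 above both controls, against 33.0% of all genes, and a median of 0.28. In the fit of both, Pcna fell by 1.25 ± 0.41 (adjusted p = 0.0229) and Rrm1 fell by 1.07 ± 0.36 (adjusted p = 0.0256), where 15.3% of all genes were called lower. Pcna read 7.46 and 10.63 in these arrays against 10.14 and 10.44 at 0 h, and without replicate 1 its difference was 0.34 and that of Rrm1 was 0.09. The count was 0 without replicate 1 at 12 h, 11 without replicate 2, 1 without control replicate 1 and 0 without control replicate 2. At 24 h all 30 means were above 0 h, with a median of 0.44. Among the groups of 2 arrays up to 48 h, 28 of the 30 genes had their highest SPR mean at 24 h. The 12 h mean in that ranking includes the array of narrow range, and the ranking was not made without it. It also used plain means with no term for batch. In mean centred level of the 30 genes, replicate 2 at 12 h stood at 0.39 and replicate 1 at -0.65, against 0.35 and 0.77 at 24 h. The 24 h array at 0.77 is of batch 3, while the other SPR arrays at 0, 12 and 24 h are of batch 2. The part of batch in the 24 h means was not tested. None was called at 24 h by limma, where 0.260% of all genes were called either way, while 7 were higher at an unadjusted p under 0.05. Ccne1 read 6.18 and 6.68 at 0 h and 6.90 and 7.43 at 24 h, a difference of 0.71 ± 0.26 (adjusted p = 0.406). At 48 h and 1008 h none was called by limma, where 0.207% and 0% of all genes were called, with 4 higher at 48 h and 0 either way at 1008 h at an unadjusted p under 0.05.

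Tested over all times at once, with a moderated F test and no fold threshold, all 30 genes varied in FVB, where 50.9% of all genes did, 29 of 30 in F1 (26.7% of all genes) and 25 of 30 in SPR (35.3%). Pcna was the exception in F1 (adjusted p = 0.246). With SPR fitted alone none of the 30 passed. Within batch 2 the F1 count and the SPR count were both 0, and leaving out 1 array gave 17 to 30 in SPR.

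Differences between strains in the change from 0 h were tested directly. F1 minus FVB gave no called replication gene by limma at 6, 12, 24, 48, 72 or 1008 h, where 0%, 0%, 0.0106%, 0.0691%, 0.361% and 1.41% of all genes were called either way. At an unadjusted p under 0.05 the counts were 0, 1, 0, 4, 6 and 11. At 6 h the differences ran from -0.55 to 0.71, with Pole at 0.71 and a 95% interval from -0.05 to 1.46, so this test does not show that the strains respond alike. At 72 h 1 gene was called without FVB control replicate 1, 1 without FVB replicate 3 at 72 h and 5 without F1 replicate 1 at 72 h. SPR minus FVB at 12 h gave 14 lower genes, where 13.6% of all genes were called lower, led by Rrm2 at -2.23 ± 0.52, and SPR minus F1 at 12 h gave 9, where 5.27% were. Both counts were 0 without SPR replicate 1 at 12 h and 22 without its replicate 2, and both were 0 without SPR control replicate 2. The SPR minus FVB count was 9 without FVB control replicate 2 and 6 without FVB replicate 2 at 12 h, and the SPR minus F1 count was 0 without F1 control replicate 2 or 4, without either F1 array at 12 h and without SPR control replicate 1. SPR minus FVB at 1008 h called Ccne1, at -1.36 ± 0.33 (adjusted p = 0.019), where 0.739% of all genes were called lower and 16 of the 30 were lower at an unadjusted p under 0.05. The count was 10 without the 2 arrays of narrow range, 12 with cyclic loess and 5 with arrays centred on their medians. Of the SPR arrays at 1008 h, replicate 2 is of batch 3, while replicate 1 and both SPR controls are of batch 2. The call of Ccne1 was lost without FVB control replicate 1, SPR control replicate 2 or SPR replicate 2 at 1008 h. The count there was 2 without FVB control replicate 3, 3 without FVB replicate 3 at 1008 h, 3 without SPR control replicate 1 and 2 without SPR replicate 1 at 1008 h. At 24 h and 48 h SPR minus FVB, where 0.0106% and 0.143% of all genes were called, and at 4, 24, 48 and 1008 h SPR minus F1, where 0.00531%, 0%, 0% and 0% were, no replication gene was called by limma. Of these tests only SPR minus FVB at 48 h had genes at an unadjusted p under 0.05, with 2 lower.

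Groups of 1 array were not tested. The F1 array at 2 h lay below both controls of its batch for 29 of the 30 genes, against 53.2% of all genes, with a median difference of -0.59 against -0.15 over all genes. Its hair matrix genes were also high, at 2.11, as they were in F1 control replicate 1, at 1.41. The F1 array at 168 h had a median of 0.03. The SPR arrays at 2 h and 6 h lay below both controls for 19 and 24 genes, against 37.8% and 36.9% of all genes, with medians of -0.53 and -0.60. The 6 h array is of another batch than the SPR controls, so batch and time cannot be told apart there.

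For 28 of the 30 genes 1 probe set was available. Pcna had a further probe set, which followed the one used, at 0.63 ± 0.34 at 12 h against 0 h in FVB and 1.10 ± 0.34 from 6 h to 12 h, neither called. Fen1 had a dimmer further probe set, with an overall mean of 4.32 against 5.66, which stood at -0.08 ± 0.25 in that step, against 0.60 ± 0.26 for the one used.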

How the data were processed

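RNA from dorsal skin was hybridised to Affymetrix arrays. The deposited values are log2 expression for 35556 probe sets, made by the authors with RMA, per the submitters' processing notes; the sources used here do not state whether a batch correction was applied. Of these probe sets, 21218 had 1 gene symbol in the platform annotation, 1881 had several and were left out, and 12457 were unnamed. limma 3.58.1 (R 4.3.3) fitted the 66 arrays at once, with 27 group means, 1 coefficient that sets batch 3 apart from batch 2, and 38 residual degrees of freedom; FVB is all batch 1, so strain levels were not compared. Each gene's spread was pooled over all groups. No pair of arrays held identical values.

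The genes and lists were chosen with earlier results of these data known. Values in every array were given for members called in FVB, 1 or 2 per role with the largest change, and up to 4 called genes were named per other list. Names of genes in F1 and SPR follow their calls. Alternatives covered shrinkage, scaling, filters, probe sets, threshold, strain, batch, block and arrays left out. The fit was tested on simulated data.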

Additional observations from a re-analysis of the deposited data

Results flagged for a closer look

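Of 60 sets of 4 to 10 arrays in F1 (each gene at 0 h and at 1008 h), 4 had an array standing clear of the rest, where chance gives about 1 in 20. At 0 h, Cdt1 read 6.21 in replicate 2 against 6.35 to 6.38 in the others, and Rpa2 read 6.36 in replicate 1 against 6.66 to 6.72. At 1008 h, replicate 5 was low for Mcm4, at 7.96 against 8.13 to 8.18, and for Mcm7, at 8.36 against 8.65 to 8.81.

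Changes differed between strains in 3 tests: 14 genes at 12 h between SPR and FVB, where 13.6% of all genes were called lower, 9 at 12 h between SPR and F1 (5.27%), and 1 at 1008 h between SPR and FVB (0.739%). The counts of 14 and 9 were both 0 without the SPR array of narrow range. The 1 gene at 1008 h, Ccne1, was not called without FVB control replicate 1, SPR control replicate 2 or SPR replicate 2 at 1008 h. The count there was 10 without the 2 arrays of narrow range. SPR replicate 2 at 1008 h is of batch 3, and the SPR controls are of batch 2.

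Of the 3 arrays whose strain the labels do not give, the first, at 2 h, had 2 of the 30 genes above all 9 controls and 3 below them, against 15.9% and 24.2% of all genes. The second, at 6 h, and the third, with no time, each had 19 genes below all 9 controls, against 22.6% and 14.7% of all genes, and 0 above, against 33.1% and 20.2%.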

How the results depend on the processing

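Of 917 counts of called replication genes recomputed under an alternative, 788 stayed within 1.5 times the reported count and 129 moved further. The 788 include counts of 0 that stayed at 0, so they do not measure how stable the other counts were. For single called genes, in settings other than leaving out 1 array, 1315 values stayed on their side of the threshold, 176 lost the call and 3 changed sign. The 1315 include the setting with no fold threshold, in which no call can be lost. With 1 array left out, which left 1 array in some groups, 563 stayed, 237 lost the call and 2 changed sign. The cause of these changes was not tested. All changes below are against 0 h unless another time is named. With arrays centred on their medians, F1 had 11, 2, 1 and 0 at 12, 24, 48 and 72 h, SPR 3 at 4 h, FVB 0 for 72 h against 48 h, and SPR minus FVB 5 at 1008 h. With cyclic loess, F1 had 2 at 24 h and 0 at 72 h, SPR 0 at 12 h, FVB 5 for 1008 h against 168 h, F1 minus FVB 1 at 72 h and 1 at 1008 h, SPR minus FVB 3 at 12 h and 12 at 1008 h, and SPR minus F1 0 at 12 h; Pcna in SPR at 12 h became 0.17. With dim genes left out, SPR minus FVB had 3 at 1008 h. With no fold threshold, FVB had 5, 14, 18, 12, 6 and 10 at 2, 6, 12, 24, 48 and 1008 h, 3 for 6 h against 2 h and 8 for 1008 h against 168 h, F1 18, 8, 15, 2, 3 and 2 at 4, 6, 12, 24, 48 and 72 h, and SPR 4 at 12 h. With each strain fitted alone, SPR had 0 at 4 h, 0 at 12 h and 0 in the F test. Within batch 2, F1 had 0 at 4, 6, 12, 24 and 72 h, 0 for 12 h against 6 h and 0 in the F test, SPR 1 at 4 h, 0 at 12 h and 0 in the F test, and SPR minus F1 0 at 12 h. Within batch 3, F1 had 12 at 12 h and 0 at 24 h.

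Without the 2 arrays of narrow range, F1 had 0 at 72 h, SPR 0 at 12 h (Pcna 0.34, Rrm1 0.09), F1 minus FVB 1 at 1008 h, SPR minus FVB 0 at 12 h and 10 at 1008 h, and SPR minus F1 0 at 12 h. Without the 2 liver-rich controls, FVB had 1 at 2 h, 5 at 24 h, 0 at 48 h and 0 for 72 h against 48 h, and SPR minus FVB 3 at 12 h. Without 3 FVB arrays that stood apart in cell type lists (the third replicates of 6 h and 72 h and the first of 48 h), FVB had 0 at 48 h and 0 for 72 h against 48 h, F1 minus FVB 1 at 72 h, and SPR minus FVB 2 at 1008 h. With a replicate block, F1 had 2 at 24 h and 0 at 72 h, FVB 0 for 72 h against 48 h, and SPR minus F1 0 at 12 h, and no other count moved by over 1.5 times. Deviations from group means were also correlated between each treated array and the same-numbered 0 h array. They correlated above 0.1 in 8 of 24 pairs in FVB (-0.61 to 0.37), 3 of 17 in F1 and 4 of 10 in SPR. In SPR, with 2 arrays per group, the deviations mirror each other and each correlation is counted for both replicates. This check cannot tell whether replicate numbers pair the arrays.

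Leaving out 1 array at a time gave, in FVB, 0 to 2, 6 to 9, 4 to 11, 2 to 8, 0 to 1 and 1 to 3 at 2, 6, 12, 24, 48 and 1008 h, 23 to 25 for 12 h against 6 h, 0 to 2 for 72 h against 48 h and 2 to 7 for 1008 h against 168 h. It gave, in F1, 6 to 10 at 4 h, 1 to 6 at 6 h, 3 to 9 at 12 h, 0 to 2 at 24 h, 0 to 2 at 48 h, 0 to 7 at 72 h and 1 to 19 for 12 h against 6 h, and in SPR 0 to 9 at 4 h and 0 to 11 at 12 h (Pcna -2.83 to 0.34 and Rrm1 -2.23 to 0.09). For F1 minus FVB it gave 0 to 5 at 72 h, for SPR minus FVB 0 to 22 at 12 h and 0 to 3 at 1008 h, and for SPR minus F1 0 to 22 at 12 h. F test counts ran from 29 to 30 in FVB, 25 to 29 in F1 and 17 to 30 in SPR.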

Other observations

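The other gene lists were also followed in F1 skin. At 24 h 19 of the 21 mitosis genes rose over 0 h, with a median of 1.44, where 1.14% of all genes were called higher. At 48 h 18 did, with a median of 1.28, where 1.04% of all genes were called higher. The medians of the 30 replication genes at these times were 0.47 and 0.45. From 6 h to 12 h 13 of the 44 other replication genes and 13 of the 21 mitosis genes rose, where 0.887% of all genes were called higher. Of the 27 G1/S regulators 4 rose in that step, the pocket protein Rbl1 by 1.62 and the E2F family members E2f8, E2f1 and E2f2 by 1.37, 1.18 and 1.16. At 4 h against 0 h 3 of the 27 rose and 6 fell, where 5.46% and 5.03% of all genes did. Among the 6 were cyclin D1 (Ccnd1) at -1.70, Cdkn1b at -1.65 and E2f1 at -1.46. In SPR skin 4 of the 21 mitosis genes fell at 4 h, where 2.70% of all genes were called lower. At 24 h 2 of them rose, where 0.191% of all genes were called higher, and the median of the list was 1.06. The counts of these other lists were not recomputed with arrays left out.

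In the 3 arrays of no stated strain, the mean level of the 30 replication genes, each centred on its mean over the assigned arrays, was 0.07, -0.67 and -0.54.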
